A study of Mus musculus with 12 samples.

Results

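The tubulin genes are described here in RNA from whole mouse aortae. The set names 10 genes of the alpha- and beta-tubulin families, Tuba1a, Tuba1b, Tuba1c, Tuba4a, Tuba8, Tubb2a, Tubb2b, Tubb4b, Tubb5 and Tubb6. A gene entered when an Ensembl transcript of it, looked up in GENCODE release M21, was a row of the deposited table, which lists a transcript from a mean of about 0.5 FPKM in the higher group upwards. FPKM are sequenced fragments scaled by transcript length and by library size. The genes were chosen by family with the FPKM difference between these control and fasted libraries already known, and selected on their FPKM being high enough to be listed. Of the 12287 genes the table formed, 9 were members, with 11 transcript rows; Tuba8 was not among the rows and is not analysed here. The 12 libraries came from C57BL/6 mice aged 7 weeks, 6 labelled control and 6 fasted for 24 h, and the comparison asks which aortic RNAs differ after the fast. The labels mention no transgene, and they do not say that replicates are separate animals, so the spread between libraries may in part be technical. Each library held 299588 to 327492 FPKM in listed transcripts, and its read depth is unknown. The defining markers of smooth muscle, the main cell of the aortic wall, were present: Acta2 averaged 4984 ± 457 FPKM without and 4623 ± 245 FPKM with the fast, and Myh11 1129 ± 44.95 and 1085 ± 59.99 FPKM (SD, n = 6 each). Neither passed the test between groups (adjusted p = 0.303 and 0.437 in limma). Of the 8 smooth muscle markers listed, 1 rose and 1 fell. These were Lmod1 (log2 difference 0.32, adjusted p = 0.00359 in limma) and Cnn1 (-0.17, adjusted p = 0.0483). Over all tested genes 13.8% rose and 17.9% fell past an adjusted p of 0.05 in the same test.

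Tubulin is the building block of microtubules: an alpha and a beta subunit form a dimer, and dimers assemble into hollow, polar filaments that carry transport, organise the cell and form the spindle. Mammals carry several genes for each subunit, whose products are nearly alike and are expressed in different proportions by different tissues. Cells adjust tubulin RNA to the pool of free dimer: the factor TTC5 binds the first residues of a tubulin chain as it leaves the ribosome, and the RNA is then degraded. The first codons of the coding region, which encode those residues, are shown for 8 of the 9 members and for Tubb4a, a beta-tubulin gene outside the set (that of Tubb6 is not shown), because they are the feature that sets tubulin RNAs apart in that mechanism. They are written 5′ to 3′ from the GENCODE M21 transcripts, with the codons after the start codon in capitals.
Tuba1a: atgCGTGAGTGC
Tuba1b: atgCGTGAGTGC
Tuba1c: atgCGTGAGTGC
Tuba4a: atgCGCGAGTGC
Tubb2a: atgCGCGAGATC
Tubb2b: atgCGAGAGATC
Tubb4b: atgAGGGAGATC
Tubb5: atgAGGGAAATC
Tubb4a: atgCGGGAAATC
The 4 alpha genes close this stretch with one codon and the beta genes shown with another. The Tubb5 start is that of Tubb5-201, its main transcript, and Tubb5-202 has an annotated start downstream that opens otherwise. With Tubb1, the genes shown use 8 different starts of 12 bases. Among 12199 genes with a listed transcript and an annotated start codon, 10 opened with one of these 8, namely the 9 genes shown and Tubb1. The starts were taken from these 10 genes, so the count shows only that no other gene matched one exactly. Other codons for the same residues were not searched.

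The most abundant alpha-tubulin RNAs were the members furthest below their control level in the fasted aortae. These values belong to the comparison that was in view when the genes were chosen, so for the members they are given as a description and no p-value is attached. Tuba1b, an alpha-tubulin made in most tissues, lay between 142.5 and 172 FPKM in controls, with a median of 168, and between 73.9 and 100.4 FPKM in fasted aortae, with a median of 94.9. The groups did not overlap, and control replicate 6 was the one control under 165 FPKM. The means were 164 ± 10.9 and 89.8 ± 11.7 FPKM (SD, n = 6 each), a ratio of 0.546. On the log2(FPKM + 1) scale the difference was -0.87 ± 0.08 (SE from limma). Tuba1a, best known from neurons and the developing brain, ranged from 136 to 179.9 FPKM in controls around a median of 155, and from 75.3 to 94.1 FPKM around a median of 90.2 in fasted aortae. It too showed no overlap, with means of 157 ± 19.6 and 86.7 ± 8.13 FPKM and a log2 difference of -0.84 ± 0.09. Tuba1c, another gene of this cluster, differed less. Its control libraries lay between 56.7 and 70.4 FPKM (median 68.3) and its fasted libraries between 36.6 and 54.9 FPKM (median 51.4), again apart. The mean was 28.2% lower, and the log2 difference was -0.48 ± 0.10.

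Among the beta-tubulins of the set the size of the difference varied widely. Tubb2b, a low-level gene associated with neurons, had the largest of these members: 6.22 to 9.75 FPKM in controls (median 7.34) and 3.69 to 4.59 FPKM in fasted aortae (median 4.46). The fasted libraries all lay below the controls, and the log2 difference was -0.69 ± 0.10. With 0.1 or 0.01 added in place of 1, the difference of Tubb2b was -0.80 or -0.81. Its close relative Tubb2a was at 38.4 to 53.6 FPKM in controls (median 41.9) and at 21.5 to 35.4 FPKM after the fast (median 31.5), without overlap (-0.52 ± 0.12). Tubb4b, a widely expressed gene, ranged from 69.8 to 89.7 FPKM in controls (median 81.5) and from 44.8 to 67.2 FPKM in fasted aortae (median 60.01). There was no overlap here either, and the log2 difference was -0.50 ± 0.09.
Tubb5, the major beta-tubulin of most cells and the most abundant one here, was at 91.9 to 107.4 FPKM in controls (median 101.5) and 76.5 to 94.4 FPKM in fasted aortae (median 80.3). Fasted replicate 3, at 94.4 FPKM, was the one fasted library inside the control range, and the log2 difference was -0.29 ± 0.06. Tubb6, a beta-tubulin found in many non-neuronal cells, was at 33.1 to 40.5 FPKM in controls (median 39.5) and 25.4 to 40.3 FPKM after the fast (median 34.5). Of its 6 fasted libraries 5 lay within the control range, and the log2 difference of -0.17 ± 0.10 was close to the spread between libraries of 0.18 (pooled SD within groups).

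Tuba4a, an alpha-tubulin of muscle, platelets and brain, was the one member with the higher mean in fasted aortae, and its values were too scattered to place the groups apart. It was at 1.003 to 3.89 FPKM in controls (median 1.71) and 1.36 to 4.14 FPKM in fasted aortae (median 3.19). Its log2 difference was 0.31 ± 0.24, and it was 0.19 without control replicate 5, 0.18 for its most abundant transcript alone and 0.15 without fasted replicates 3 and 4. Other settings gave more: 0.45 without control replicate 3, and 0.44 or 0.46 with 0.1 or 0.01 added in place of 1. Over 20 alternatives it ran from 0.15 to 0.46. This gene had the lowest FPKM of the listed members. Its value is the sum of a pair of listed transcripts. Tuba4a-202, with 4 exons, held 90.1% of the gene in controls and 77.9% in fasted aortae, and Tuba4a-204, with 3 exons, held the rest and was listed at 0 in 4 of the 12 libraries. Tubb5 was the other member with more than 1 listed transcript, and Tubb5-201 held 99.4% of it in controls and 99.5% after the fast. Every other member rested on 1 transcript of 4 exons.

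**Figure D1:**
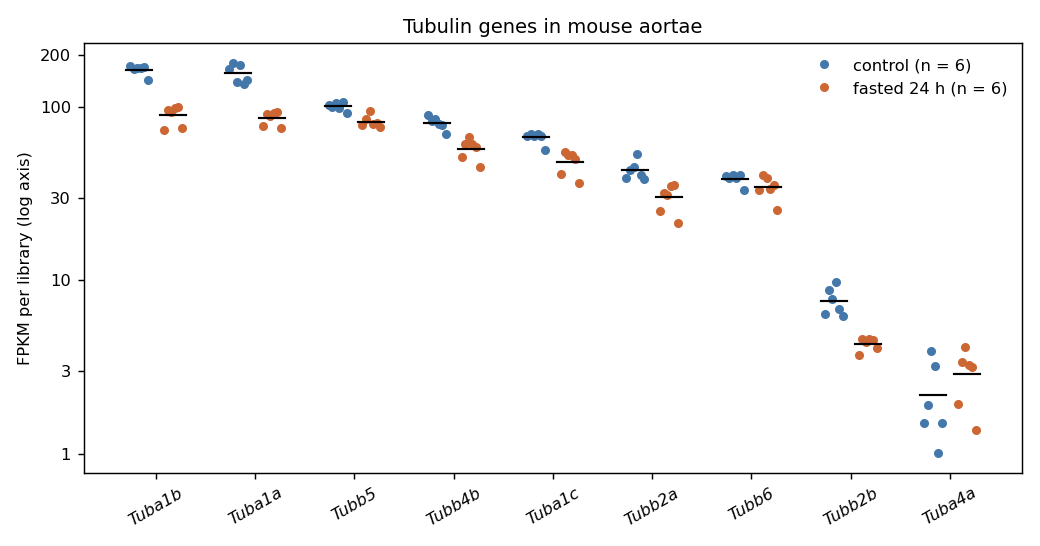
FPKM of the 9 listed tubulin members in each library (log axis), with 6 control libraries in blue, 6 fasted in orange and the group mean as a black line. Tuba1b and Tuba1a separate most clearly, with fasted libraries at or below 100.4 FPKM and controls at or above 136 FPKM, while the groups of Tubb6 and Tuba4a overlap.

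Over the 9 members the fasted mean was lower in 8, and the groups did not overlap in 6, each with the fasted libraries below. Of the 12063 tested genes 10.2% lay that way, 6.78% lay apart with the fasted libraries above, and 17.0% lay apart in either direction. With limma 7 members were past an adjusted p of 0.05, all lower, and 0 were past it in the higher direction. The same test called 31.7% of all tested genes. As shares of all tested genes, 17.9% were called lower in fasted aortae and 13.8% higher, a split that depended on how the libraries were scaled. Because the genes were chosen with this contrast in view, the counts of members are not read as evidence. The median log2 difference of the members was -0.50, against -0.024 over all tested genes. Of all tested genes, 0.796% had a difference as low as that of Tuba1b and 0.904% one as low as that of Tuba1a. The shares were 1.97% for Tubb2b, 4.79% for Tubb2a, 5.26% for Tubb4b and 5.88% for Tuba1c. Tubb5 at 15.7% and Tubb6 at 28.5% lay nearer the middle, and Tuba4a at 88.9% lay on the other side of it.

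Of the 5 listed tubulin genes outside the set 3 also fell in fasted aortae. They are not members, but this list too was drawn up with earlier results of these data known, so the adjusted p-values, taken over all genes, are not independent support for the members' direction. Tubb4a, a beta-tubulin known from neurons and myelin-forming cells, was at 21.8 to 30.5 FPKM in controls (median 25.2) and 8.79 to 15.3 FPKM in fasted aortae (median 12.1). The fasted libraries lay well below every control, and the mean was 2.22-fold lower. It fell by 1.10 on the log2(FPKM + 1) scale (SE 0.13, adjusted p = 6.00e-05 in limma over all genes), a larger difference than that of any member, and 0.307% of tested genes were as low. Tubd1, the delta-tubulin of centrioles, fell from 2.98 ± 0.487 to 2.01 ± 0.492 FPKM (-0.41 in log2, adjusted p = 0.013 in limma). Its most abundant transcript alone did not pass (-0.18, adjusted p = 0.719). Tubg2, one of the gamma-tubulins that nucleate microtubules, fell from 1.55 ± 0.179 to 1.10 ± 0.242 FPKM (-0.28, adjusted p = 0.0241). That call was lost when control replicate 1 or 2 (adjusted p = 0.0501 each) or fasted replicate 2 (0.0534) or 4 (0.0529) was left out. Tubg1, the main gamma-tubulin, averaged 10.1 ± 0.683 FPKM without the fast and 8.65 ± 1.22 FPKM with it, and did not pass (-0.21, adjusted p = 0.0553). Without fasted replicate 3, the highest fasted library, it did (-0.28, adjusted p = 0.00242). Tubb1, the beta-tubulin of platelets, averaged 1.23 ± 0.742 FPKM without the fast and 0.569 ± 0.417 FPKM with it (-0.48, adjusted p = 0.135). It passed without control replicate 4 (-0.62, adjusted p = 0.0457). Of the 10 further tubulin genes looked for, these 5 were listed, and 3 fell and 0 rose past the threshold. Over all tested genes 17.9% fell and 13.8% rose past it. For the genes near 1 FPKM the pseudocount sets the printed size: with 0.1 in place of 1, the log2 difference was -1.002 for Tubb1 (adjusted p = 0.146) and -0.47 for Tubg2 (adjusted p = 0.0283), and with 0.01 it was -1.16 and -0.50. Tuba3a, Tuba3b, Tubal3, Tubb3 and Tube1 were not among the rows.

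**Figure D2:**
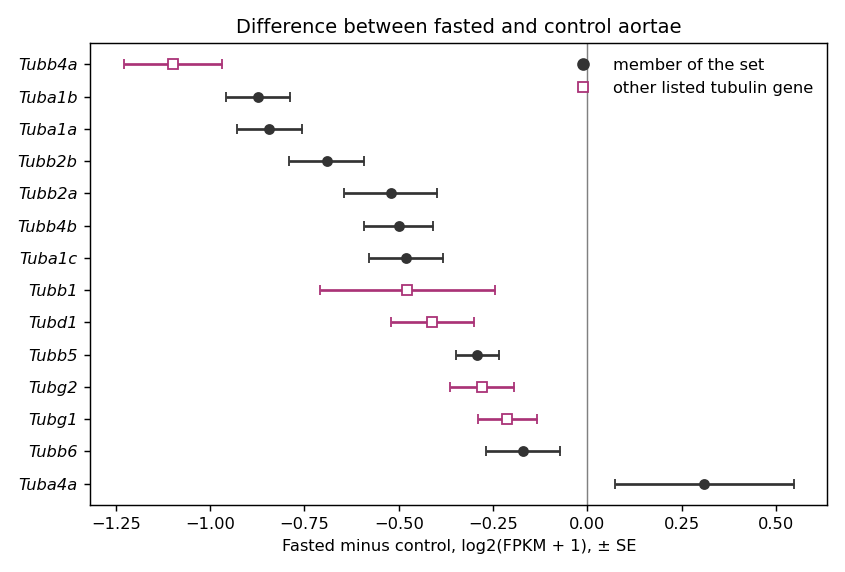
Fasted minus control difference on the log2(FPKM + 1) scale with its SE from limma (x axis) for the 9 members (filled circles) and 5 other listed tubulin genes (open squares). Every gene except Tuba4a lies left of 0, from -0.17 for Tubb6 to -1.10 for Tubb4a.

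Summed over genes, alpha-tubulin RNA differed more than beta-tubulin RNA. Adding the 4 listed alpha genes gave 344 to 418 FPKM in controls (median 393) and 189.5 to 248 FPKM in fasted aortae (median 243), a mean 41.7% lower. Adding the 7 listed beta genes, Tubb4a and Tubb1 included, gave 267 to 309.7 FPKM in controls (median 305) and 182 to 252 FPKM in fasted aortae (median 227), a mean 26.1% lower. Neither pair of groups overlapped. The ratio of summed alpha to summed beta FPKM was 1.31 ± 0.0576 in controls and 1.03 ± 0.0578 in fasted aortae (SD, n = 6). Subunits enter the dimer in equal number, but this is a ratio of RNA, and these data hold no protein values. The sums consist mostly of members, so the ratio too is a description. The ratio ranged from 1.22 to 1.37 in controls and from 0.956 to 1.09 after the fast, so the groups were apart in it as well. Within a family the ranges of some shares overlapped between groups and those of others did not. Tuba1b held 42.2% of alpha-tubulin FPKM in controls and 39.5% in fasted aortae, and Tuba1a held 40.1% and 38.2%, both with overlapping ranges. Tuba1c held 17.2% and 21.1%, apart, with controls at or below 18.1% and fasted libraries at or above 19.3%. These genes share much sequence, so the split among them depends on how shared reads were assigned, which is not stated. In the beta family Tubb5 went from 33.8% to 37.5%, with overlapping ranges, and Tubb6 from 12.9% to 15.6% without overlap, while Tubb4a went from 8.68% to 5.24%. The ranges of Tubb4b (27.1% and 25.9%) and Tubb2a (14.5% and 13.6%) overlapped between groups.

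**Figure D3:**
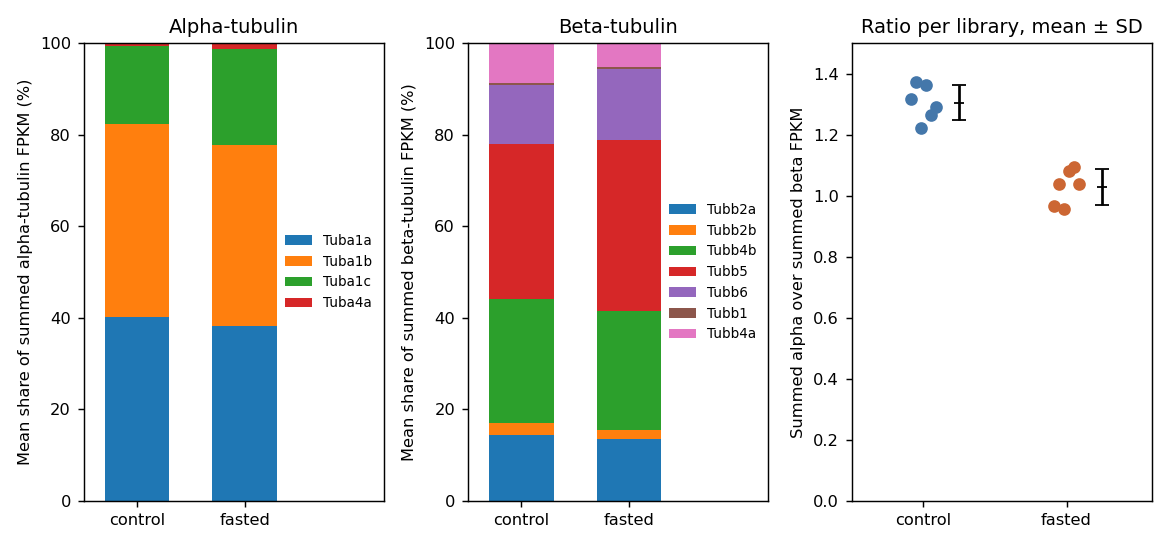
Mean share of each gene in the summed alpha-tubulin FPKM (left) and beta-tubulin FPKM (middle), in percent, for 6 control and 6 fasted libraries, and the ratio of the sums in every library with mean ± SD (right). Tuba1c, Tubb5 and Tubb6 take larger shares and Tubb4a a smaller one after the fast. The ratio lies at 1.22 or above in controls and at 1.09 or below in fasted aortae. The split among Tuba1a, Tuba1b and Tuba1c depends on how shared reads were assigned.

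In order of level over all libraries the members ran Tuba1b, Tuba1a, Tubb5, Tubb4b, Tuba1c, Tubb2a, Tubb6, Tubb2b and Tuba4a. FPKM, being per length, allows that comparison, but for genes that share sequence the order also depends on how shared reads were assigned. Tuba1b and Tuba1a could not be ordered: Tuba1b was the higher in 8 of 12 libraries, 3 of them controls. Tuba1a exceeded Tubb5 in all 6 controls and in 3 of the 6 fasted libraries. Tubb2a and Tubb6 exchanged places, with Tubb2a the higher in 5 controls and in 2 fasted libraries. The remaining neighbours kept their order in all 12 libraries.

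The libraries of a group tended to be low in the same members. Fasted replicates 1 and 6 were the lowest pair of the fasted group in all 9 members, replicate 6 being the lowest in 7 and replicate 1 in 2. Control replicate 6 was the lowest control in 7 of 9 members, Tuba1a and Tuba4a being the exceptions. Summed alpha- and beta-tubulin was 372 FPKM in fasted replicate 6 and 396 FPKM in fasted replicate 1, against 474 to 492 FPKM in the other fasted libraries, and 611 FPKM in control replicate 6, against 673 to 724 FPKM in the other controls. Even so, the lowest control sum was above the highest fasted one. Leaving out any single library left the log2 difference of Tuba1b between -0.91 and -0.82 and that of Tubb6 between -0.22 and -0.09.

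**Figure D4:**
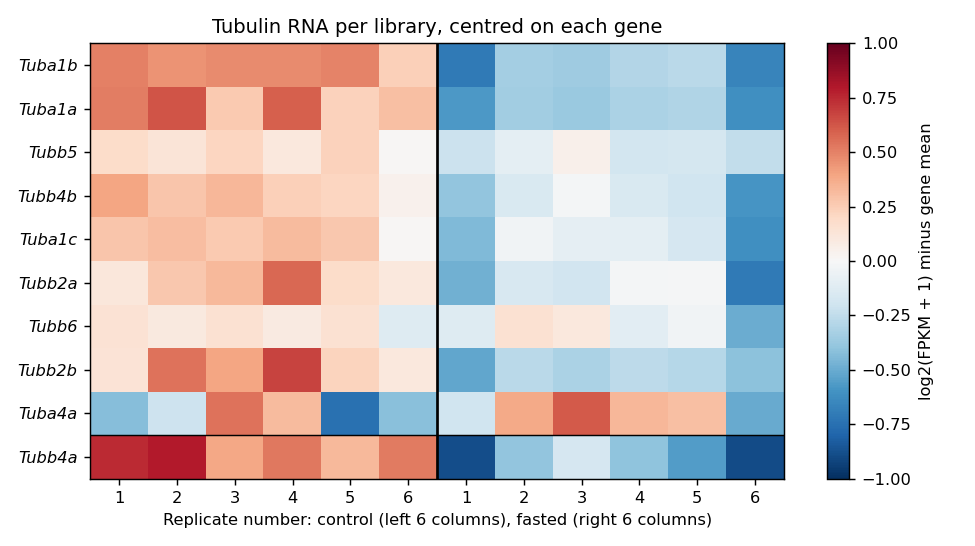
Each cell is log2(FPKM + 1) of a gene in a library minus the mean of that gene over the 12 libraries, with 6 control columns left and 6 fasted columns right of the line, for the 9 members and, under the line, Tubb4a. Fasted replicates 1 and 6 are the lowest pair of the fasted group in all 9 members.

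Promoters are shown for 3 members that were lower together and whose upstream stretch lies outside their GENCODE transcript. RefSeq promoters on GRCm38.p6 were used for 7 members, and the 250 bases before the start were searched on both strands. Tubb2b and Tubb6 were not searched. One motif was CCAAT, the box bound by NF-Y, present in 4 of the 7 and in 33.9% of 32851 promoters of the table. Another was GGGCGG, the box bound by SP1, present in 5 of the 7 and in 32.7% of the promoters. The last was the TATA box TATAAA, present in 1 of the 7 and in 12.4% of the promoters. None of these motifs contains another. The stretch just before the start is written on the strand of the gene, with motif matches on either strand in capitals. They come from chr15:99029766-99029890 (plus strand), chr13:34078009-34078133 (minus strand) and chr2:25224703-25224827 (minus strand).
Tuba1c: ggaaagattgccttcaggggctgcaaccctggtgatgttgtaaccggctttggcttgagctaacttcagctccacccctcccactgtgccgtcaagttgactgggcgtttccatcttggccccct
Tubb2a: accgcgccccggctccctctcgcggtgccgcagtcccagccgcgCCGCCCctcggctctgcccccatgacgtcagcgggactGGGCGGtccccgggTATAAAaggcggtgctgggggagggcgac
Tubb4b: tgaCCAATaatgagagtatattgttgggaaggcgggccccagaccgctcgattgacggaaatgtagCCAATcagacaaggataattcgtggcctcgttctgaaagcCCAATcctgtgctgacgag
Tubb2a carried TATAAA starting 29 bases before the start and GGGCGG at 43 and 81 bases. Tubb4b carried 5 CCAAT matches in its 250 bases, 3 of them in the stretch shown. Tuba1c carried 1, at 151 bases, upstream of the stretch shown. The lower members that were searched did not hold one motif in common. Tuba1a held CCAAT and GGGCGG, and Tuba1b held GGGCGG alone. GGGCGG was also held by Tuba4a, the member with the higher fasted mean. The promoter of Tubb4a, searched in the same way, held none of the 3 motifs.

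The members lie in clusters and share sequence, which bears on how reads can be told apart. On GRCm38, Tuba1b (ENSMUSG00000023004.8, chromosome 15, 98931425 to 98934565), Tuba1a (ENSMUSG00000072235.6, 98949837 to 98953703) and Tuba1c (ENSMUSG00000043091.9, 99029891 to 99038110) are neighbours. Tubb2a (chromosome 13, 34074274 to 34078007) and Tubb2b (34126748 to 34130466) form another pair. Tubb5 (35833921 to 35838306) and Tubb4a (57080066 to 57087782) lie on chromosome 17. Tubb4b is on chromosome 2 (25222160 to 25224702), Tuba4a on chromosome 1 (75214228 to 75219865) and Tubb6 on chromosome 18 (67390717 to 67402749). Gm49450, a gene model on the same strand, overlaps both Tuba1a and Tuba1b, Fam166a overlaps Tubb4b on the other strand and Stk16 overlaps Tuba4a on the other strand. Of all windows of 50 bases in the transcript, 73.8% for Tuba1b, 72.9% for Tuba1a and 60.99% for Tuba1c also occurred in a transcript of another gene, most often another gene of this cluster. The share was 49.6% for Tubb2a and 39.3% for Tubb2b, mostly each other, and 50.9% for Tubb4b, mostly pseudogenes. It was 0.115% for Tubb5-201, 0% for Tubb6 and at most 3.89% for Tuba4a. The 6 members whose groups did not overlap were thus those with the larger shared parts, and how shared reads were assigned is not stated in the labels or notes, so values within the Tuba1 cluster and the Tubb2 pair are uncertain singly. Tubb4a, with the largest difference, shared 0.184% of its windows. Of the members that share little, Tubb5 had fasted values mostly below the controls. Tubb6 and Tuba4a had 5 fasted libraries each within the control range. The part of shared reads in the differences was not tested.

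The lists of genes that serve tubulin held calls in both directions, other than the autoregulation list, which held none. Counts are of genes past an adjusted p of 0.05 in limma, beside 31.7% of all tested genes. Of 23 tested folding genes (prefoldin, the chaperonin CCT and the tubulin cofactors) 1 rose and 2 fell, with a median log2 difference of -0.04. Cct3, a chaperonin subunit, fell from 31.96 ± 2.96 to 22.6 ± 4.21 FPKM (adjusted p = 0.00346), while its main transcript taken singly gave 0.042 (adjusted p = 0.934). Another subunit, Cct2, rose from 73.9 ± 3.74 to 87.2 ± 7.64 FPKM (adjusted p = 0.0122), a call lost without fasted replicates 5 and 6 (adjusted p = 0.0562). The cofactor Tbcb fell from 18.3 ± 1.02 to 15.6 ± 1.48 FPKM (adjusted p = 0.0163). Tbcc had a log2 difference of -0.18 (adjusted p = 0.0825) and Arl2, a GTPase that acts with the cofactors, one of -0.33 (adjusted p = 0.0695). Without fasted replicate 3, 2 folding genes rose and 4 fell, and Arl2 was among them (-0.45, adjusted p = 0.0021). With median-of-ratios scaling 2 rose and 2 fell.

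None of the 4 genes of tubulin RNA autoregulation passed in limma, and 0 had an unadjusted p under 0.05. Ttc5, the reader of the nascent chain, averaged 14.2 ± 0.801 FPKM without the fast and 13.97 ± 1.65 FPKM with it (-0.02 ± 0.08 in log2, adjusted p = 0.845). Scaper, its partner, had a log2 difference of -0.04 ± 0.10 (adjusted p = 0.812). Cnot10 and Cnot11, subunits of the CCR4-NOT deadenylase, had 0.02 ± 0.08 (adjusted p = 0.869) and 0.03 ± 0.05 (adjusted p = 0.677).

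Of 19 nucleation genes 3 rose and 1 fell. Haus8, a subunit of the augmin complex that branches microtubules, fell from 17.4 ± 1.59 to 8.39 ± 1.18 FPKM (-0.97 ± 0.09 in log2, adjusted p = 5.42e-06). Haus4, another augmin subunit, rose from 1.99 ± 0.173 to 2.99 ± 0.202 FPKM (adjusted p = 2.63e-04). Pcnt, a scaffold of the centrosome, rose from 5.19 ± 0.417 to 6.94 ± 0.803 FPKM (adjusted p = 0.00294). Akap9 (0.15, adjusted p = 0.0479) was no longer called when control replicate 1, 2, 3, 4 or 5 or fasted replicate 1, 2, 4, 5 or 6 was left out (adjusted p 0.0656 to 0.101). Mzt2 was at 0.26 (adjusted p = 0.0536) and passed once control replicate 3, control replicate 6 or fasted replicate 1 was left out (adjusted p 0.0166 to 0.0379).

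Of 15 enzymes and partners that modify tubulin 2 rose and 4 fell, 40.0% in all, with a median log2 difference of -0.18. Atat1, which acetylates alpha-tubulin inside the microtubule, fell from 5.76 ± 0.814 to 3.10 ± 0.430 FPKM (-0.72 ± 0.10 in log2, adjusted p = 1.45e-04), but its most abundant transcript alone did not pass (-0.16, adjusted p = 0.641). Sirt2, which removes that acetyl group, rose from 23.1 ± 1.21 to 26.3 ± 1.07 FPKM (adjusted p = 0.00893), and its most abundant transcript alone did not pass (0.09, adjusted p = 0.199). Ttll12, a member of the tubulin tyrosine ligase-like family, fell from 3.90 ± 0.266 to 2.75 ± 0.201 FPKM (adjusted p = 3.67e-04). Ttl, which puts the last tyrosine back on alpha-tubulin, fell from 9.04 ± 0.604 to 7.53 ± 0.760 FPKM (adjusted p = 0.0205). Svbp, a partner of the enzymes that remove that tyrosine, rose from 7.33 ± 1.64 to 11.4 ± 3.02 FPKM (adjusted p = 0.029), a call lost when control replicate 1, 2, 4 or 5, or fasted replicate 3, 5 or 6, was left out (adjusted p 0.0543 to 0.0607), and with its most abundant transcript alone (0.24, adjusted p = 0.152). Without control replicate 1 or 4 the list held 4 called genes, and with the most abundant transcripts alone it held 3, all lower.

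Of 41 microtubule-associated proteins tested, 10 rose and 5 fell, with a median log2 difference of 0.07. The called share of 36.6% is near that of all tested genes, and the split between directions was not tested. Map7d2, a MAP7-family protein that helps kinesin-1 bind microtubules, rose from 5.13 ± 0.839 to 9.52 ± 1.39 FPKM (0.78 ± 0.10 in log2, adjusted p = 1.43e-04). Its relative Map7 rose from 2.27 ± 0.201 to 3.82 ± 0.660 FPKM (adjusted p = 6.38e-04). The stabilising protein Map1b rose from 86.4 ± 5.74 to 115 ± 11.6 FPKM (adjusted p = 9.12e-04), Clip3 from 24.7 ± 1.28 to 32.2 ± 2.60 FPKM (adjusted p = 3.57e-04) and Tppp, which promotes polymerisation, from 2.57 ± 0.193 to 3.74 ± 0.452 FPKM (adjusted p = 0.00138). Of 39 motor genes 6 rose and 4 fell. Dynll1, a dynein light chain with many other partners, fell from 81.2 ± 11.9 to 48.2 ± 5.97 FPKM (-0.74 ± 0.11 in log2, adjusted p = 2.52e-04) and the dynactin subunit Dctn5 from 22.3 ± 3.900 to 12.9 ± 2.35 FPKM (adjusted p = 8.40e-04). Kif3a, a kinesin-2 motor, fell from 19.2 ± 0.793 to 15.3 ± 1.73 FPKM (adjusted p = 0.00352), although its most abundant transcript alone did not pass (adjusted p = 0.224). Kif13a rose from 39.8 ± 2.80 to 52.2 ± 9.79 FPKM (adjusted p = 0.023), with 0.547 for its most abundant transcript alone. Dctn6, another dynactin subunit, rose from 46.7 ± 9.03 to 63.9 ± 11.8 FPKM (adjusted p = 0.0253), a call lost when control replicate 2 or 5, or fasted replicate 4, 5 or 6, was left out (adjusted p 0.0506 to 0.0562). The motor count was unstable: 5 genes were called when control replicate 2, 3 or 5, or fasted replicate 4, was left out, 6 without fasted replicate 1, 2 or 5, and 4 with the most abundant transcripts alone. With median-of-ratios scaling 9 motor genes rose and 3 fell.

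**Figure D5:**
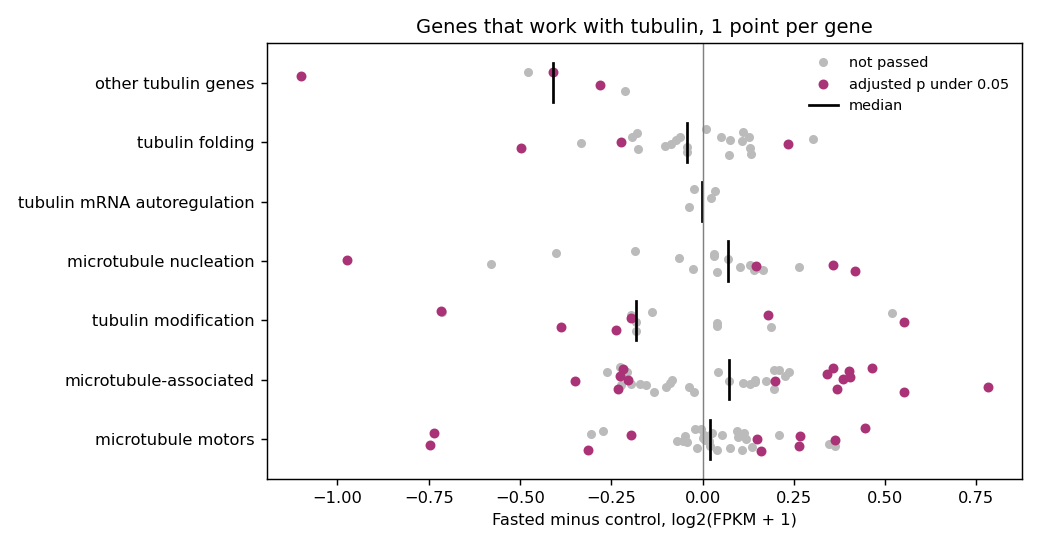
Each point is a tested gene placed by its fasted minus control difference on the log2(FPKM + 1) scale, in 7 lists of genes that work with tubulin, coloured where the adjusted p of limma was under 0.05, with the list median as a black line. The list medians are -0.41 for the other tubulin genes, -0.18 for modification, -0.04 for folding, -0.0008 for autoregulation, 0.02 for motors and 0.07 for both nucleation and microtubule-associated genes.

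The genes whose profile over the 12 libraries was most like that of Tuba1b, the member with the highest mean and the lowest log2 difference, were sought among 5064 other genes with a mean of at least 10 FPKM. Likeness was the root mean square difference of the centred log2(FPKM + 1) values, which takes in the gap between the groups as well as the spread within them. The nearest was Pole4, a histone-fold subunit of DNA polymerase epsilon, at 0.0938, which averaged 15.6 ± 1.08 FPKM without the fast and 8.44 ± 1.16 FPKM with it. The cytosolic pyrophosphatase Ppa1 (0.116), the co-chaperone Fkbp4 (0.132), the oligosaccharyltransferase subunit Ostc (0.135) and the spliceosomal prolyl isomerase Ppil1 (0.141) came next. The profile of Tuba1a lay at 0.126, with 2 genes closer. Tubb2b had 23 genes closer, Tubb4b 51, Tuba1c and Tubb4a 55 each, Tubb2a 72, Tubb5 443, Tubb6 916 and Tuba4a 4699.

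Markers of other cells were compared because several tubulin genes are known from neurons, platelets, muscle and dividing cells. In bulk RNA fewer cells of a type and less RNA per cell cannot be told apart. The marker calls stand beside those over all tested genes, of which limma called 31.7%, 13.8% higher and 17.9% lower. Of 8 neuronal markers 7 were not among the rows, Tubb3, Snap25 and Elavl4 included. The one listed, Uchl1, averaged 42.3 ± 3.95 FPKM without the fast and 37.7 ± 5.28 FPKM with it (adjusted p = 0.179 in limma). Schwann cell markers, 4 of 7 listed, summed to 2.89 to 5.54 FPKM in controls and 3.35 to 7.05 FPKM after the fast. Platelet markers, 5 of 6 listed, summed to 31.8 to 64.4 FPKM and 26.7 to 53.02 FPKM, with Pf4 at 30.3 ± 6.21 and 29.1 ± 5.11 FPKM. Markers of cycling cells, 7 of 8 listed, summed to 5.16 to 9.77 FPKM and 4.76 to 15.4 FPKM, and 0 passed in either direction. Skeletal muscle markers, 2 of 8 listed, stayed between 2.66 and 5.28 FPKM in both groups. Fibroblast markers (all 7 listed) summed to 1626 to 2008 FPKM in controls and 1670.0 to 1862 FPKM after the fast, and 2 rose and 1 fell. The risers were the proteoglycan gene Dcn (log2 difference 0.25, adjusted p = 0.0373) and the receptor gene Pdgfra (0.29, adjusted p = 0.00518), and the proteoglycan gene Lum fell (-0.31, adjusted p = 0.0162). Macrophage markers (all 6 listed) summed to 149 to 248 FPKM and 149.5 to 265 FPKM, and erythroid markers (5 of 6) to 476 to 2819 FPKM and 375 to 2482 FPKM. All 8 endothelial markers were listed and summed to 142 to 218 FPKM in controls and 198 to 277 FPKM after the fast, ranges that overlap. Of these 8, 2 passed, and both rose: the adhesion molecule gene Pecam1 (log2 difference 0.77, adjusted p = 1.63e-04) and the tight junction gene Cldn5 (0.77, adjusted p = 2.43e-04). Adipocyte markers (6 of 7) ran from 23.04 to 52.95 FPKM in controls and from 16.9 to 152 FPKM in fasted aortae, and brown adipocyte markers (4 of 6) from 10.7 to 26.3 and from 18.2 to 50.1 FPKM. Cardiac markers (all 6) ran from 23.6 to 47.02 FPKM in controls and from 33.6 to 225 FPKM after the fast. Called adipocyte markers were Cidec (log2 difference 1.53, adjusted p = 0.00421 in limma) and Pck1 (1.9, adjusted p = 0.00367). Called too were the brown adipocyte marker Cidea (0.74, adjusted p = 0.00341) and the cardiac marker Tnnt2 (1.44, adjusted p = 0.0105). These all rose, as did the Schwann cell marker Cdh19 (0.48, adjusted p = 0.0021), while the macrophage marker Adgre1 fell (-0.46, adjusted p = 0.029). The part of these markers in the tubulin values was not tested, beyond leaving out libraries, a choice made after seeing the data. Without fasted replicates 3 and 4, whose adipocyte markers exceeded 2 times the median library, the log2 difference of Tubb4a was -1.23 (adjusted p = 7.74e-05 in limma) and the median of the 9 members was -0.58. Without fasted replicates 5 and 6, which exceeded that limit in cardiac markers, the values were -1.01 (adjusted p = 6.26e-04) and -0.43.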

How the data were processed

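The authors deposited 1 table of FPKM values for 22699 transcripts in 12 libraries. Per the submitters' processing notes, FastQC, cutadapt, HISAT2, StringTie and GRCm38 were used; versions and the handling of shared reads are not stated there. Transcripts were assigned to genes with GENCODE M21 (21493 identifiers of the same version, 1162 of another, 44 unmatched with 0.117% of FPKM) and summed per gene. FPKM carry no read depth, so no counting error can be given. The fasted and control groups were compared with limma 3.58.1 in R 4.3.3 (trended prior) on log2(FPKM + 1) over the 12063 genes that reached 0.5 FPKM in 6 or more libraries, with Benjamini-Hochberg adjustment over all of them. The p-values measure only the spread between these libraries. The procedure was tested on simulated data in which 200 genes were raised in the fasted group, with noise drawn independently for each gene and library. In these data far more genes were called, in both directions, so the simulation does not gauge the calls given here. Members and lists were chosen with earlier results of these data known. Named genes were all members, other tubulin and autoregulation genes, up to 5 genes of smallest p in each other list, and the 5 nearest profiles. Uchl1, Pf4, Pdgfra, Lum, Cldn5, Lmod1, Cnn1, Cidec, Pck1, Cidea, Tnnt2, Cdh19 and Adgre1 were added after their values were seen. Promoters are from RefSeq. Alternatives changed the pseudocount (0.1 or 0.01), filter, scaling, transcript choice, replicate block and libraries used.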

Additional observations from a re-analysis of the deposited data

Results flagged for a closer look

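Within the 6 libraries of a group, the gap between the most extreme library and its nearest neighbour, divided by the range, was compared with the Dixon critical value. Of 88 groups of values looked at, 18 exceeded it, and chance flags about 1 in 20. Among the members, control replicate 6 stood below the other controls in Tuba1b (142.5 FPKM), Tuba1c (56.7 FPKM) and Tubb6 (33.1 FPKM). Of the other tubulin genes, Tubg1 was high in fasted replicate 3 (11.02 FPKM) and Tubg2 low in control replicate 3 (1.21 FPKM).

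Fasted replicate 3 was also apart in several genes that serve tubulin. It was the highest fasted library for Arl2 (16.5 FPKM) and the lowest for Cct2 (72.4 FPKM), Scaper (3.47 FPKM), Ttl (6.07 FPKM) and Tppp (2.87 FPKM). Fasted replicate 1 was low in Ttc5 (10.8 FPKM) and high in Clip3 (37.3 FPKM). Fasted replicate 4 was high in Haus8 (10.7 FPKM) and Map7d2 (12.3 FPKM), and fasted replicate 5 in Ttll12 (3.12 FPKM). Among controls, replicate 6 was high in Sirt2 (25.4 FPKM) and Svbp (10.5 FPKM), and replicate 3 was low in Ttl (7.89 FPKM).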

How the results depend on the processing

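Over 20 alternatives, 12 of them leaving out 1 library, the log2 differences of single members kept their direction. They moved by less than the pooled SD in 180 of 180 comparisons, but most of these could not have failed. Leaving out 1 of 6 libraries cannot move a group mean by as much as the pooled SD. The filter and the replicate block leave the differences as they are, as does transcript choice for members with 1 listed transcript. The other named genes kept their direction and their side of the threshold in 616 of 680, with 41 calls lost, 14 gained and 9 changes of sign. The signs that changed, on the log2 scale, were those of Cct3 with its most abundant transcript alone (0.0424), Ttc5 with median-of-ratios scaling (0.0041), and Scaper (0.0665) and Cnot11 (-0.0002) without the libraries high in adipocyte markers. When 1 library was left out, Ttc5 ran from -0.0498 to 0.0436, Scaper from -0.0671 to 0.059, Cnot10 from -0.0353 to 0.063 and Cnot11 from -0.001 to 0.0553. Folding genes called numbered 3 to 6 when 1 library was left out and 5 without the libraries high in adipocyte markers. Motor genes called numbered 5 to 10 when 1 library was left out, 5 without the libraries high in cardiac markers and 4 with the most abundant transcripts alone, where modification genes numbered 3. The cause was not tested. The replicate block called 3652 of all genes, against 3821 without it. Same-numbered libraries correlated at -0.00634 to 0.0845, so the numbers were not taken to pair them. Under the block Tubg2 (adjusted p = 0.0646 in limma) and Akap9 (0.0632) lost their calls and Arl2 (0.0374) gained one. Median-of-ratios scaling moved the median of all genes from -0.02 to 0.00042. Read depth is unknown and limits low genes such as Tuba4a and Tubb1 most.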
